A study of Mus musculus with 6 samples.

Results

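Insulin and IGF receptor signalling was followed through 9 genes, Insr, Igf1r, Irs1, Irs2, Pik3ca, Pik3r1, Akt1, Akt2 and Foxo1, which were picked by symbol from the 21652 genes of the count table. All 9 were listed and all 9 had enough counts to be tested, as had 12782 genes of the table. The measurements were ribosome profiling libraries of MIN6 cells, an insulin-secreting line from a mouse pancreatic beta-cell tumour, with 3 libraries of cells carrying the sgLTN1 guide and 3 of cells carrying the sgNT guide. The guide against Ltn1 targets the gene of Listerin, the E3 ubiquitin ligase that marks unfinished chains on stalled 60S subunits, and sgNT is taken here as a non-targeting guide. Whether either population is a clone, and whether replicate libraries stem from separate cultures, is not stated in the labels, and a p-value here sets a difference against a spread that may be technical.

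Insulin and the insulin-like growth factors bind receptor tyrosine kinases, which phosphorylate the IRS adaptors. The adaptors recruit PI3-kinase, its lipid product brings Akt to the membrane, and Akt phosphorylates FOXO factors and so keeps them out of the nucleus. In beta cells the pathway is known for its role in beta-cell mass and survival, for which Irs2 is needed in mice, and insulin from the cell itself can act on it. When FOXO factors are active in the nucleus they raise transcription of Irs2 and Insr, which closes a feedback loop.

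Library totals were between 4993245 and 11198735 counts in sgLTN1 and between 4373467 and 7802364 counts in sgNT. Ltn1 footprints were 65.3, 71.4 and 64.9 CPM (counts scaled to a common library size, with TMM factors) in sgLTN1 libraries 1 to 3 and 143, 145 and 141 CPM in sgNT libraries 1 to 3, so all libraries labelled sgLTN1 were lower on the targeted gene. Of 12 beta-cell markers 10 had enough counts to be tested, Slc2a2 and Ucn3 being the exceptions, and their summed level was 93456 to 114680 CPM in sgLTN1 and 95659 to 105713 CPM in sgNT. The 12 markers of other islet and exocrine cells summed to 584 to 663 CPM in sgLTN1 and 586 to 618 CPM in sgNT, most of it on Gcg, the glucagon gene. Of these 12 only 4 were tested, Gcg, Sst and Ppy among them, and the other 8 held 2 to 27 counts each in sgLTN1 and 2 to 23 in sgNT. Sst, the somatostatin gene of delta cells, averaged 43.3 CPM in sgLTN1 and 30.4 CPM in sgNT (log2 fold change 0.50, adjusted p = 0.0620), and Ppy, the pancreatic polypeptide gene, 6.09 CPM in sgLTN1 and 3.30 CPM in sgNT (0.82, adjusted p = 0.176). None of the 14 tested markers passed edgeR's test, and the part of these cell types in the values below was not tested. In such bulk libraries fewer cells of a type and less RNA per cell cannot be told apart, and a footprint count combines the amount of an mRNA with its occupancy by ribosomes.

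None of the 9 genes passed an adjusted p of 0.05 in edgeR's quasi-likelihood test, where 0.180% of all tested genes did. In the authors' deposited table an adjusted p was given for 5 of the 9. Of these 0 were called, against 8.42% of all 2697 genes with an adjusted p there. The fitted level of Irs2 was 0.789 of its sgNT level. The 95% interval of Irs2 lay below 0 on the log2 scale and those of Akt1 and Igf1r above 0. These intervals are not adjusted for the number of genes tested, and those of the other 6 included no change. An unadjusted p below 0.05 was reached by 3 of the 9 (Irs2, Igf1r and Akt1), against 15.6% of all tested genes. When each of the 6 libraries was left out in turn, that p stayed below 0.05 in 6 of 6 fits for Irs2, in 3 of 6 for Akt1 and in 2 of 6 for Igf1r. Complete separation of the libraries of one group from those of the other was seen for 3 of the 9 (Irs2 and Akt2 lower, Akt1 higher), against 20.2% of all tested genes. The median log2 fold change of the 9 was 0.07, with 6 above 0 and 3 below, beside a median of -0.02 over all tested genes. Summed over the 9, footprints came to 615, 631 and 574 CPM in sgLTN1 libraries 1 to 3 and 616, 576 and 573 CPM in sgNT libraries 1 to 3, a sum that Igf1r dominates.

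**Figure D1:**
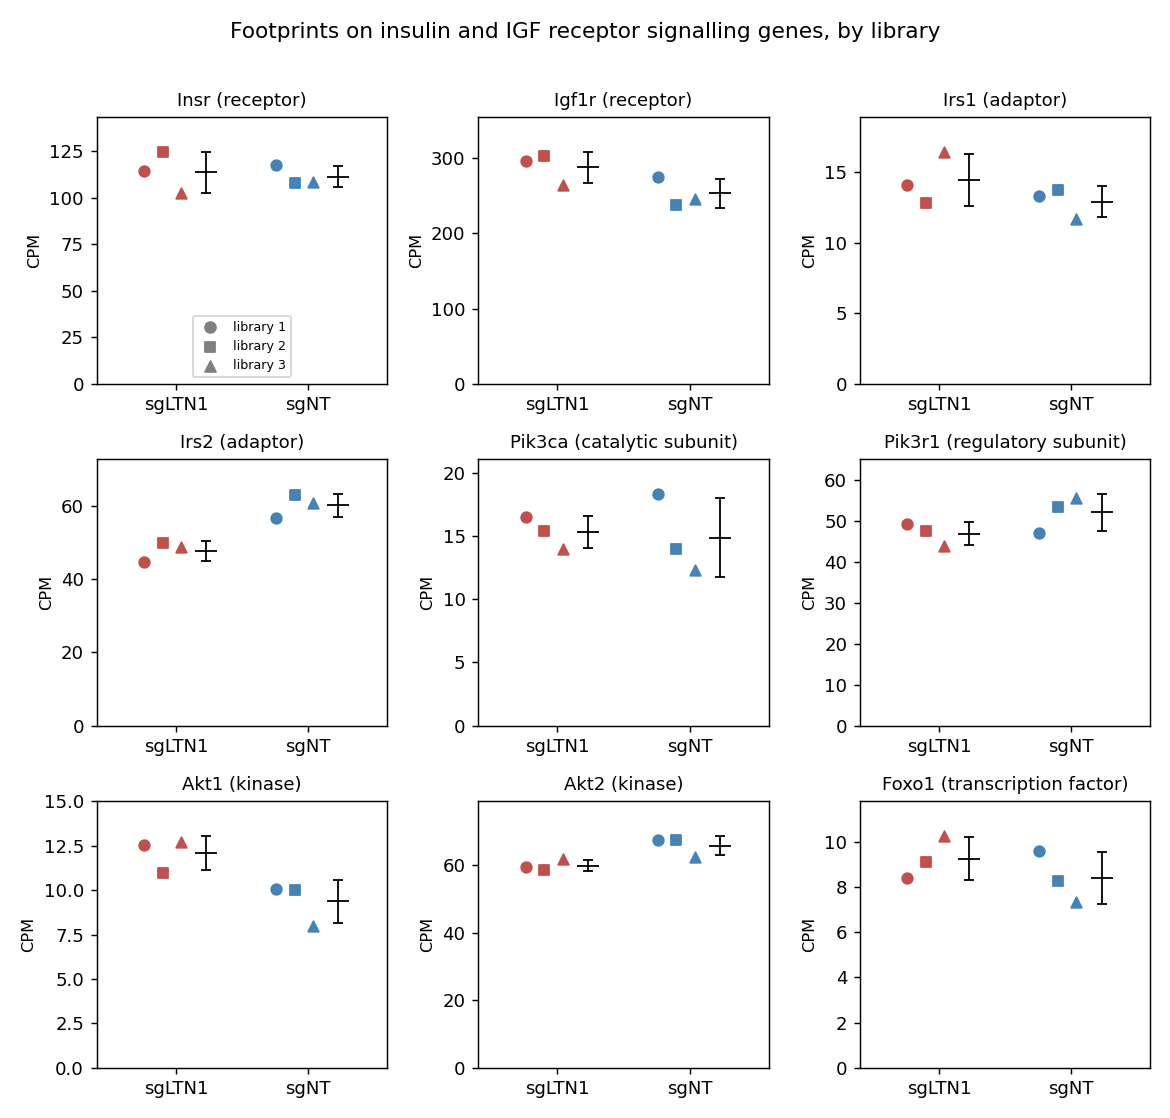
Footprints in CPM (vertical axes, from 0) on each of the 9 genes, with 1 point per library (shape gives the library number) and the mean ± SD of 3 libraries beside the points. The sgLTN1 and sgNT points are apart for Irs2, Akt1 and Akt2 and overlap for the other 6 genes.

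The receptors came first in the pathway. Insr encodes the insulin receptor (ENSMUSG00000005534.11), and its footprints were 114, 124 and 103 CPM in sgLTN1 libraries 1 to 3 and 118, 108 and 109 CPM in sgNT libraries 1 to 3. The highest and the lowest of the 6 values both belonged to sgLTN1, so the groups overlapped throughout. The means were 114 ± 11.0 CPM in sgLTN1 and 111 ± 5.61 CPM in sgNT (SD, n = 3 each). The log2 fold change was 0.04 (SE 0.08, 95% interval -0.14 to 0.22, adjusted p = 0.882). With 4799 counts over the libraries, this interval covers folds between 0.906 and 1.16.

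Igf1r encodes the receptor for IGF1 and IGF2 (ENSMUSG00000005533.11), a close relative of the insulin receptor with which it can form hybrids. Its footprints were 296, 303 and 264 CPM in sgLTN1 and 276, 238 and 246 CPM in sgNT. The lowest sgLTN1 library, library 3, lay below the highest sgNT library, library 1, and the other libraries were apart. The means were 288 ± 20.7 CPM in sgLTN1 and 253 ± 19.8 CPM in sgNT (SD, n = 3 each), a log2 fold change of 0.19 (SE 0.08, 95% interval 0.02 to 0.36) with an unadjusted p of 0.0323 and adjusted p = 0.273. The spread of Igf1r between libraries, 7.20% of the mean in sgLTN1 and 7.81% in sgNT, was larger than the 2.19% and 2.73% that counting alone gives at its depth. Fold changes over all genes moved with abundance, and at the abundance of Igf1r that trend was 0.06, which leaves 0.12 once it is subtracted.

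Both receptors were lowest of their group in sgLTN1 library 3 and highest of their group in sgNT library 1. Their ratio within a library therefore varied less than either gene. Counts on Insr were 0.386, 0.411 and 0.388 of those on Igf1r in sgLTN1 libraries and 0.428, 0.453 and 0.440 in sgNT libraries, with no overlap between the groups. The size of such a ratio also depends on the lengths of both genes, which do not differ between groups, so only its difference is read. The difference was -0.16 on the log2 scale (two-sided exact permutation test over 20 labellings, p = 0.1, adjusted p = 0.133 over the 4 ratios examined), and 0.1 is the smallest p that 3 libraries against 3 can give.

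The IRS adaptors carry the signal from receptor to PI3-kinase, and Irs2 showed the smallest p of the 9 genes. Irs2 (ENSMUSG00000038894.8) read 44.6, 49.8 and 48.7 CPM in sgLTN1 libraries 1 to 3 and 56.8, 63.0 and 60.8 CPM in sgNT libraries 1 to 3. Every sgLTN1 library lay below every sgNT library, and the gap between the groups was wider than the range within either. The means were 47.7 ± 2.76 CPM in sgLTN1 and 60.2 ± 3.11 CPM in sgNT (SD, n = 3 each), so that 0.789 of the sgNT level was seen in sgLTN1 (95% interval 0.697 to 0.893). The log2 fold change was -0.34 (SE 0.08), with an unadjusted p of 0.00148 that ranked 160 among the tested genes and adjusted p = 0.118. In the authors' deposited table, which was made with DESeq2 from the same libraries, Irs2 stood at -0.32 on the log2 scale (SE 0.12) with adjusted p = 0.0741, and 8.42% of the genes with an adjusted p there were called. The value without any 1 library lay between -0.37 and -0.29.

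Irs1 (ENSMUSG00000055980.3), the adaptor best known from muscle and fat, read 14.1, 12.8 and 16.4 CPM in sgLTN1 and 13.3, 13.7 and 11.6 CPM in sgNT. The groups overlapped, with sgLTN1 library 3 the highest of all 6 and sgNT library 3 the lowest. The means were 14.4 ± 1.84 CPM in sgLTN1 and 12.9 ± 1.10 CPM in sgNT (SD, n = 3 each), a log2 fold change of 0.13 (SE 0.13, 95% interval -0.16 to 0.42, adjusted p = 0.721), which was 0.06 without sgLTN1 library 3 and 0.23 without sgLTN1 library 2. Irs1 had 577 counts in all, against 2229 for Irs2, and its interval is wider accordingly. Counts on Irs2 were 3.17, 3.89 and 2.96 times those on Irs1 in sgLTN1 libraries and 4.28, 4.59 and 5.22 times in sgNT libraries. All 3 sgLTN1 ratios were below all 3 sgNT ratios, a difference of -0.50 on the log2 scale (two-sided exact permutation test, p = 0.1, adjusted p = 0.133 over the 4 ratios). The other adaptors of the family, Irs3 and Irs4, held 9 and 30 counts in all and were not tested.

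The start regions of both adaptor genes are shown because they share a pair of sequence words beside fitted values of opposite sign. The interval of Irs1 included 0, so its direction is not settled. The 250 bases before each annotated start were read from the RefSeq promoter table of build GRCm38.p6, which held 13 windows for 8 of the 9 genes, all but Insr. Searched on both strands were CACGTG, the E-box bound by basic helix-loop-helix factors, CAAAACA, which reads TGTTTTG on the other strand and is a core of the insulin response sequences bound by FOXO factors, and the forkhead core GTAAACA, which reads TGTTTAC on the other strand. Capitals mark matches, and the stretches are given 5′ to 3′ on the strand of the gene, at chr8:11008938-11008997 for Irs2, chr1:82291519-82291578 for Irs1 and chrX:141725336-141725395 for Irs4, all on the minus strand.
Irs2: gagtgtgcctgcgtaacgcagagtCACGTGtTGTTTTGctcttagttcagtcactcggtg
Irs1: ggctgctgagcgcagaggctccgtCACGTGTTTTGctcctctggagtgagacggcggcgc
Irs4: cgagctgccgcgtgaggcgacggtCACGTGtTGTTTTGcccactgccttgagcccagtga
In Irs2 the E-box lies at -44 to -39 from the start and TGTTTTG at -37 to -31, with a single base between them. In Irs1 the E-box lies at -115 to -110 and TGTTTTG at -111 to -105, so that they overlap, and Irs1 has another TGTTTTG at -32 to -26. Irs4 has the pair at -154 to -149 and -147 to -141 with the spacing of Irs2, and the window of Irs3 had neither.

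Over all 32851 promoter windows of this length, CACGTG was found in 6.02% and CAAAACA in 5.56%, both together in 0.295%, and both with their first bases at most 10 apart in 0.0213%. That last share is 7 windows, which belong to 7 genes, Irs1, Irs2, Irs4, Klf11, Pcbp1, Pyroxd1 and 1700019P21Rik. The distance of 10 bases was set after the Irs1 and Irs2 sequences had been read. GTAAACA was found in 3.17% of windows and, among the 9 genes, in 1 of the 2 windows of Akt1, shown because Akt1 had the highest fitted log2 fold change of the 9, at chr12:112675010-112675069 on the minus strand.
Akt1: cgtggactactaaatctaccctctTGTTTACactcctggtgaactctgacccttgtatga
The match lies at -161 to -155 from that start. The windows of Igf1r, Pik3ca, Pik3r1, Akt2 and Foxo1 held none of these letters. These matches describe sequence only, and footprints do not measure binding or transcription.

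PI3-kinase is a dimer of a catalytic and a regulatory subunit. Pik3ca, the p110-alpha catalytic subunit (ENSMUSG00000027665.14), read 16.5, 15.4 and 14.0 CPM in sgLTN1 and 18.3, 14.0 and 12.3 CPM in sgNT. The sgNT values spanned the sgLTN1 values, and sgNT library 1 was the highest of the 6. The means were 15.3 ± 1.28 CPM in sgLTN1 and 14.9 ± 3.12 CPM in sgNT (SD, n = 3 each), a log2 fold change of 0.07 (SE 0.15, 95% interval -0.25 to 0.39, adjusted p = 0.871). In sgNT its spread was 21.0% of the mean, against the 11.4% that counting alone gives.

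Pik3r1, the p85-alpha regulatory subunit (ENSMUSG00000041417.16), read 49.3, 47.5 and 43.8 CPM in sgLTN1 and 47.0, 53.4 and 55.7 CPM in sgNT. Only sgNT library 1 fell within the sgLTN1 range. The means were 46.8 ± 2.81 CPM in sgLTN1 and 52.0 ± 4.50 CPM in sgNT (SD, n = 3 each), and the log2 fold change was -0.15 (SE 0.09, 95% interval -0.34 to 0.05, adjusted p = 0.456), or -0.10 without sgNT library 3. Counts on Pik3r1 were 2.98, 3.08 and 3.13 times those on Pik3ca in sgLTN1 libraries and 2.56, 3.82 and 4.53 times in sgNT libraries. The sgNT ratios spread on both sides of the sgLTN1 ratios, and the difference of -0.21 on the log2 scale had p = 0.4 in the two-sided exact permutation test. Without sgNT library 1 it was -0.44 and without sgNT library 3 it was -0.03.

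The kinases Akt1 and Akt2 had fitted values of opposite sign. Akt1 (ENSMUSG00000001729.15), the isoform tied most to growth and survival, read 12.5, 11.0 and 12.7 CPM in sgLTN1 and 10.1, 10.0 and 7.98 CPM in sgNT. All sgLTN1 libraries were above all sgNT libraries, with 302 counts in sgLTN1 and 162 in sgNT behind the values. The means were 12.1 ± 0.973 CPM in sgLTN1 and 9.36 ± 1.20 CPM in sgNT (SD, n = 3 each), a fitted fold of 1.28 with a 95% interval of 1.03 to 1.59. The log2 fold change was 0.35 (SE 0.14), with an unadjusted p of 0.0320 and adjusted p = 0.271. For Akt1 the authors' deposited table held 0.38 (SE 0.24), an unadjusted p of 0.114 and no adjusted p.

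Akt2 (ENSMUSG00000004056.17), the isoform tied most to glucose handling, read 59.4, 58.5 and 61.8 CPM in sgLTN1 and 67.4, 67.7 and 62.6 CPM in sgNT. The groups were apart by a narrow margin, between sgLTN1 library 3 and sgNT library 3. The means were 59.9 ± 1.72 CPM in sgLTN1 and 65.9 ± 2.87 CPM in sgNT (SD, n = 3 each), a log2 fold change of -0.14 (SE 0.07, 95% interval -0.30 to 0.02, adjusted p = 0.387). Its spread of 2.87% in sgLTN1 and 4.36% in sgNT was below the 4.72% and 5.38% that counting alone gives. Counts on Akt1 were 0.211, 0.187 and 0.206 of those on Akt2 in sgLTN1 libraries and 0.150, 0.148 and 0.128 in sgNT libraries. The groups did not overlap, and the difference was 0.51 on the log2 scale, or 1.42-fold (two-sided exact permutation test, p = 0.1, adjusted p = 0.133 over the 4 ratios). Akt1 and Akt2 are encoded by separate genes with related coding sequences, and how reads shared by both were counted is not given in the sources used here.

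**Figure D2:**
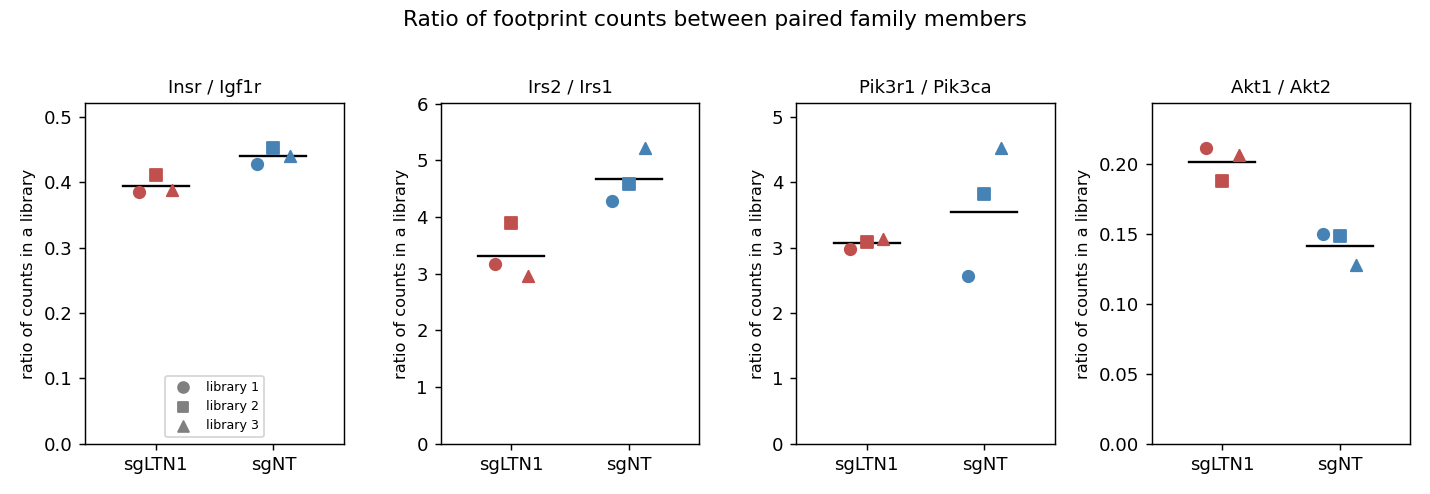
Ratio of raw counts between members of 4 pairs within each library (vertical axes, from 0), with 1 point per library and a line at the geometric mean of 3 libraries. The sgLTN1 ratios lie below the sgNT ratios for Insr over Igf1r and Irs2 over Irs1, above them for Akt1 over Akt2, and inside their range for Pik3r1 over Pik3ca.

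Foxo1 (ENSMUSG00000044167.7), a FOXO factor that Akt restrains, read 8.40, 9.12 and 10.3 CPM in sgLTN1 and 9.63, 8.29 and 7.33 CPM in sgNT. The groups overlapped, with the highest value in sgLTN1 library 3 and the lowest in sgNT library 3. The means were 9.26 ± 0.947 CPM in sgLTN1 and 8.42 ± 1.15 CPM in sgNT (SD, n = 3 each), a log2 fold change of 0.12 (SE 0.16, 95% interval -0.22 to 0.47, adjusted p = 0.782), which was 0.05 without sgNT library 3 and 0.23 without sgNT library 1. Foxo1 had the fewest counts of the 9, 227 in sgLTN1 and 143 in sgNT, and the interval covers folds between 0.856 and 1.38. The smallest change detectable at this depth was not computed.

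**Figure D3:**
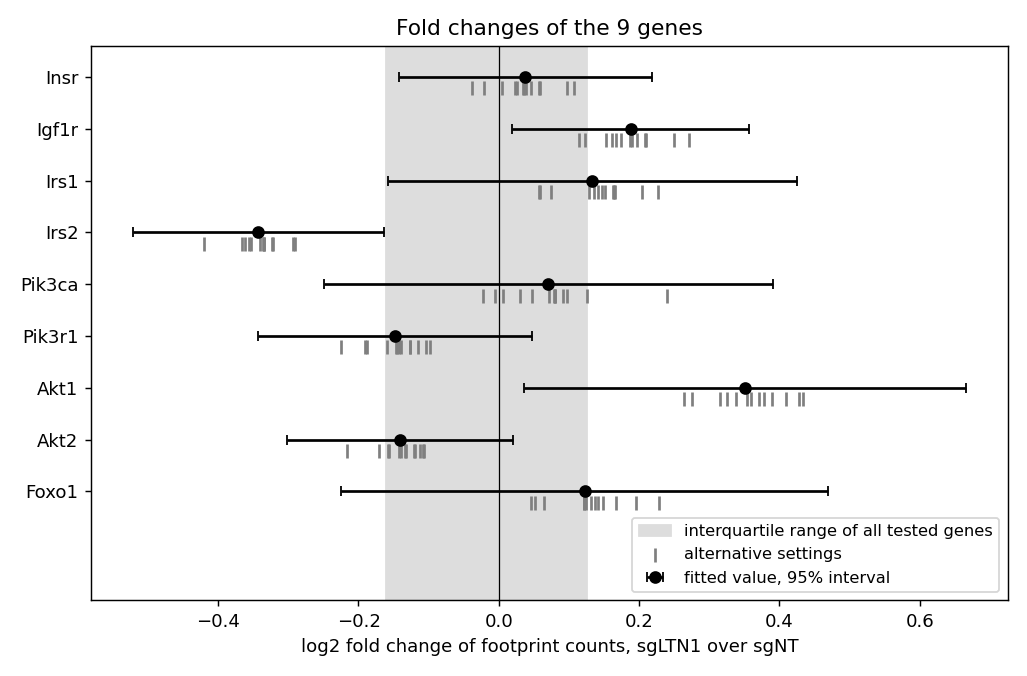
Log2 fold change of footprint counts, sgLTN1 over sgNT (horizontal axis), for each of the 9 genes: points and bars are fitted values with 95% intervals, grey ticks are 13 alternative settings per gene, and the grey band is the interquartile range of all tested genes. The intervals of Irs2, Igf1r and Akt1 leave out 0, before any adjustment for the number of genes tested, and ticks fall on both sides of 0 for Insr and Pik3ca.

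The wider pathway was read from 9 lists holding 108 genes, the 9 above included, of which 95 were tested. None passed over all genes. An unadjusted p below 0.05 was reached by 8 higher and 8 lower genes, against 8.00% and 7.56% of all tested genes, and the median log2 fold change was 0.03, with 51 above 0 and 44 below. The authors' deposited table held an adjusted p for 20 pathway genes and called Igf2, Igf2r and Cited2 among them, 3 genes, against 8.42% of all genes with an adjusted p.

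In the list of receptors and ligands all 7 tested genes had fitted values above 0, against 47.3% of all tested genes. Their median was 0.19, and 3 were higher with an unadjusted p below 0.05, against 8.00% of all tested genes. Igf2, a growth factor that acts through both receptors, read 1999, 2171 and 2145 CPM in sgLTN1 and 1858, 1674 and 1797 CPM in sgNT, with no overlap and a log2 fold change of 0.24 (SE 0.06, adjusted p = 0.120). Igf2r, which clears IGF2 and carries lysosomal enzymes, read 3461, 3577 and 3194 CPM in sgLTN1 and 2995, 2954 and 2784 CPM in sgNT, again without overlap (0.23, SE 0.06, adjusted p = 0.126, and from 0.0364 without sgLTN1 library 3 to 0.454 over the 6 fits that leave out 1 library). In the authors' deposited table both were higher in sgLTN1, at 0.27 for Igf2 and 0.25 for Igf2r, with adjusted p of 0.0113 and 0.0252. The insulin genes themselves had log2 fold changes of 0.11 for Ins1 and 0.08 for Ins2, and Igf1 held 16 counts in all. The trend of fold change with abundance was 0.13 on the log2 scale at the abundance of Igf2 and 0.14 at that of Igf2r, and 0.19 and 0.23 at those of Ins1 and Ins2. Subtracting it leaves 0.12 for Igf2, 0.09 for Igf2r, -0.08 for Ins1 and -0.15 for Ins2.

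Among 14 adaptors 9 were tested, 4 above and 5 below 0, and none but Irs2 had an unadjusted p below 0.05. Gab1, a docking protein, read 2.92 ± 0.927 CPM in sgLTN1 and 3.96 ± 0.576 CPM in sgNT (SD, n = 3 each; -0.49, SE 0.27), and Sh2b1, which binds activated receptors, 6.37 ± 0.357 CPM in sgLTN1 and 5.06 ± 1.45 CPM in sgNT (0.26, SE 0.21). Both values moved with single libraries, Gab1 standing at -0.28 without sgLTN1 library 2 and Sh2b1 at 0.12 without sgNT library 1 and 0.56 without sgNT library 2. The 11 PI3-kinase subunits were all tested, with 6 above and 5 below 0, a median of 0.04 that was -0.05 without sgNT library 1, and none with an unadjusted p below 0.05. The class II enzymes Pik3c2a at 0.17 (SE 0.09) and Pik3c2b at -0.17 (SE 0.10) had the smallest p after the 9 were set aside, and they stood at 0.08 without sgLTN1 library 1 and at -0.11 without sgNT library 2.

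Of 8 kinases downstream of PI3-kinase 4 lay above and 4 below 0. Pdpk1, the kinase PDK1 that activates Akt, read 30.8, 28.8 and 28.2 CPM in sgLTN1 and 24.3, 26.1 and 23.1 CPM in sgNT, with no overlap and a log2 fold change of 0.25 (SE 0.09, unadjusted p of 0.0186, adjusted p = 0.219). Its unadjusted p stayed below 0.05 in 4 of the 6 fits that leave out 1 library.

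The phosphatases that oppose the pathway had a median of 0.01 over 11 tested genes, 6 above and 5 below 0. That median was -0.04 without sgNT library 3 and -0.06 with total-count scaling. Ptprf, a receptor-type tyrosine phosphatase, read 470, 473 and 443 CPM in sgLTN1 and 425, 396 and 378 CPM in sgNT, without overlap (0.21, SE 0.06, adjusted p = 0.165), and Ppp2r5c, a PP2A subunit, was at -0.13 (SE 0.09), or -0.07 without sgLTN1 library 2. Of 8 tested genes among the other inhibitors 6 lay below 0, with a median of -0.16 that was 0.0038 without sgNT library 3 and -0.26 without sgNT library 2. The pseudokinase gene Trib2 read 11.6, 11.4 and 9.66 CPM in sgLTN1 and 13.5, 13.9 and 13.4 CPM in sgNT (-0.30, SE 0.12, adjusted p = 0.270). Socs3, an inhibitor of cytokine and insulin signalling, averaged 3.27 CPM in sgLTN1 and 4.39 CPM in sgNT. Its log2 fold change of -0.44 (SE 0.21, adjusted p = 0.343) rests on 158 counts in all.

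Akt substrates and FOXO factors were split evenly, 6 above and 6 below 0, with no unadjusted p below 0.05. Their median of -0.02 was -0.09 with total-count scaling. Tsc2, the mTORC1 brake that Akt phosphorylates, was at 0.16 (SE 0.10) and Mdm2, the ligase of p53, at -0.16 (SE 0.13). Without sgNT library 3 Tsc2 stood at 0.07, and without sgLTN1 library 3 Mdm2 stood at -0.08. In the Ras-MAPK branch 10 of 14 genes lay above 0, with a median of 0.07 that was 0.15 without sgLTN1 library 2, 0.14 without sgNT library 2 and -0.0019 with total-count scaling. Nras read 3.52, 3.58 and 4.73 CPM in sgLTN1 and 4.81, 20.4 and 5.61 CPM in sgNT. Its log2 fold change of -1.56 (SE 0.47) became -0.43 (SE 0.26) without sgNT library 2, which stood far above the other libraries. Map2k1, the kinase MEK1, read 133, 133 and 165 CPM in sgLTN1 and 147, 170 and 229 CPM in sgNT (-0.35, SE 0.14), with overlap, and stood at -0.15 (SE 0.10) without sgNT library 3.

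FOXO target genes, a list that includes Irs2 and Insr, had 18 of 22 genes tested, 7 above and 11 below 0, and a median of -0.10 that was -0.04 without sgNT library 3 and -0.17 with total-count scaling. An unadjusted p below 0.05 was reached by 4 genes, all lower in sgLTN1, against 7.56% of all tested genes, and 6 genes lay lower without overlap, against 10.1%. Beside Irs2, Cited2, a transcriptional coregulator, read 330, 358 and 457 CPM in sgLTN1 and 604, 448 and 579 CPM in sgNT. The groups overlapped through sgLTN1 library 3 and sgNT library 2, and the log2 fold change was -0.51 (SE 0.13, adjusted p = 0.126). Without single libraries it lay between -0.65 and -0.41, with adjusted p = 0.0168 without sgLTN1 library 3, a setting that called 333 genes in all, and between 0.103 and 0.457 without each other library. The authors' deposited table had it lower at -0.49 (SE 0.12, adjusted p = 0.00387). Cdkn1a, the cell-cycle inhibitor p21, read 50.4, 48.9 and 51.6 CPM in sgLTN1 and 58.0, 57.0 and 58.9 CPM in sgNT, without overlap (-0.21, SE 0.07, adjusted p = 0.208). The liver genes Igfbp1 and Pck1 held 16 and 24 counts in all and were not tested.

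**Figure D4:**
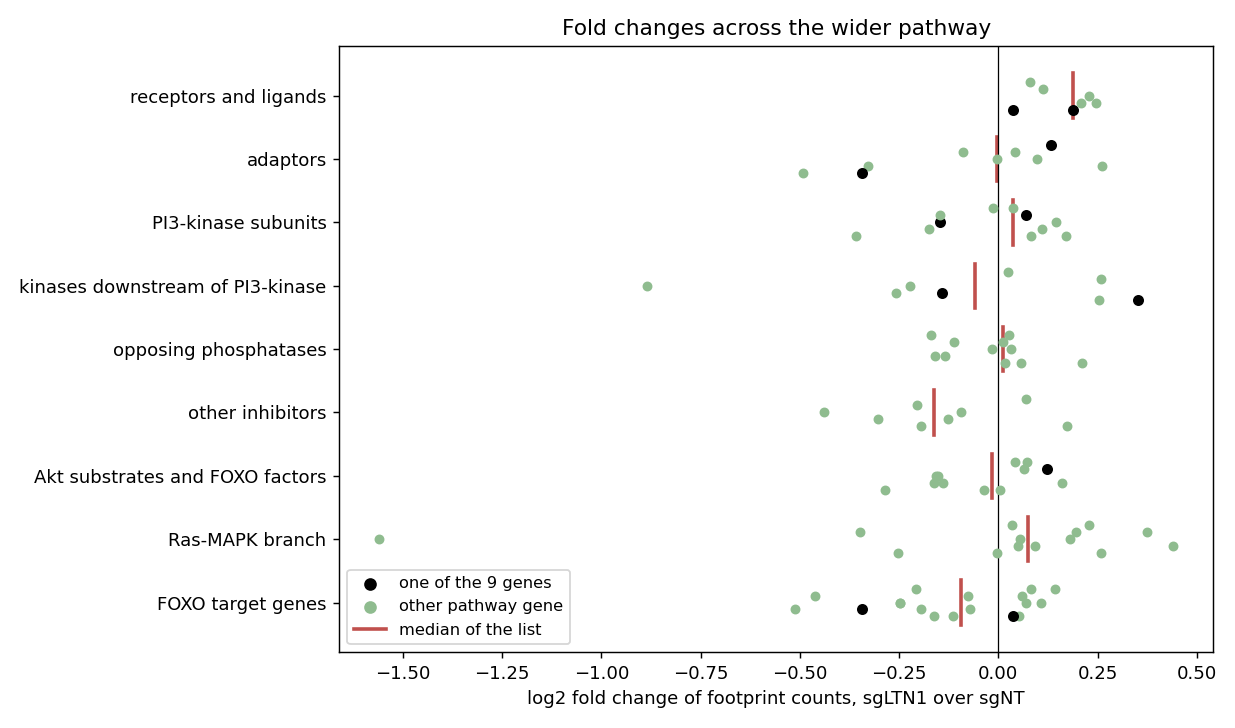
Log2 fold change of footprint counts, sgLTN1 over sgNT (horizontal axis), of every tested gene of 9 pathway lists (rows), with the 9 genes in black, other genes in green and the median of each list as a red line. The medians run from -0.16 for the other inhibitors to 0.19 for receptors and ligands, and the value of Nras, the point farthest to the left, moves to -0.43 without sgNT library 2.

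The genes whose profile over the 6 libraries was most like that of a member were found among 7513 genes with a mean of at least 10 CPM (7514 for Foxo1, itself under that level), as the smallest root mean square distance between log2 CPM values centred on each gene's mean. For Irs2 these were Mtrnr2l7 (distance 0.033), whose letters resemble mitochondrial ribosomal RNA so that its count is uncertain, and the tropomyosin gene Tpm1 (0.041). Igf1r lay nearest to Tcof1 (0.024), a nucleolar protein gene, and Bsg (0.026), which encodes the membrane protein basigin. Insr lay nearest to the DNA damage kinase gene Atr (0.018) and Slf1 (0.023). Foxo1 lay nearest to Gipr (0.021), the receptor of the incretin GIP, and Itprip (0.027). None of these 8 genes passed the test, and the distances describe 6 libraries only.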

How the data were processed

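Raw gene counts of 6 ribosome profiling libraries were deposited by the authors. Reads had been handled, per the submitters' processing notes, with STAR 2.7.11a, Bowtie2 2.5.4, featureCounts 2.12.3, UMI-tools 1.1.2, fastp 0.23.4 and SAMtools 1.9 on build GRCm39. Settings, strand and the treatment of shared reads are not stated there. A second table holds, per the file headers, DESeq2 (1.38.3) results deposited by the authors: log2 fold change and its error, mean count as a signal, the Wald score and p-values. DESeq2 1.42.0 run on the counts gave the same 227 calls.

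The test was run with edgeR 4.0.16 in R 4.3.3 (filterByExpr, TMM, quasi-likelihood test of sgLTN1 over sgNT on group alone, Benjamini-Hochberg over 12782 genes, threshold 0.05) and tested on simulated data first. SE values come from the test statistic. Log CPM used a prior count of 2. Ratios were tested by exact permutation. Intervals at 95% come from the fit. The labels give no batch that differs between the 6 libraries, so no batch was compared. Replicate libraries differed by more than sampling noise (chi-square per degree of freedom of at least 2.40). Counting-error figures cover counting only, since reads may not be independent molecules.

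Members and lists were chosen with earlier results of these data known. Named besides the 9 genes and Ltn1 are in each list the 2 other genes of smallest p, any list gene past the threshold, and the 2 genes nearest to Insr, Igf1r, Irs2 and Foxo1. Genes named beyond these were chosen after their values were seen. Some genes of the rule and the lists are not reported here by name. Alternatives were RLE and total-count scaling, DESeq2, no filter, a replicate block, omission of genes above 1% of a library, subtraction of a loess trend on abundance (span 0.4), and omission of each library. G6pc matched no symbol of the table. Since RefSeq positions are of GRCm38.p6, they are given only for the sequences printed.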

Additional observations from a re-analysis of the deposited data

How the results depend on the processing

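Of 117 values of the 9 genes under alternative settings, 113 kept their direction. An adjusted p existed for 104 of them and missed the threshold in 103, and the other 13 (trend subtraction, and DESeq2 for Irs1, Pik3ca, Akt1 and Foxo1) had none. Insr turned to -0.038 and Pik3ca to -0.0053 with total-count scaling, which moves the median of all genes to -0.09, and leaving out single libraries gave -0.021 to 0.11 for Insr and -0.022 to 0.24 for Pik3ca. Irs2 stayed between -0.42 and -0.29, with adjusted p from 0.0244 to 0.432. The lowest of these came with the replicate number as a block (-0.34, adjusted p = 0.0244). That replicate block gave 406 genes higher and 203 lower over all genes. Deviations of same-numbered libraries correlated at -0.02, 0.26 and 0.29, and sgLTN1 library 1 correlated best with sgNT library 2 (0.26). Pairs with different numbers ran from -0.33 to 0.26. Whether same-numbered libraries were prepared together is not stated in the labels and was not tested. Pairing leaves the 4 ratio differences as they are by arithmetic (-0.50 for Irs2 to Irs1 in the replicate block too) and is no check of them. Over all genes 11 were higher and 12 lower, against 183 and 44 with DESeq2, 106 and 116 without the filter on low counts and 34 lower with total-count scaling. Without single libraries 0 to 191 were higher and 4 to 142 lower, from 4 in all without sgLTN1 library 2 (edgeR called 0 higher there and in 3 more of the 6, with 653 to 1144 higher at an unadjusted p under 0.05) to 333 without sgLTN1 library 3. The cause of these shifts was not tested. Direction of all 4 ratios held without each library. Depth limits Foxo1, Akt1, Irs1 and Pik3ca most, with 370 to 643 counts each.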
